A study of Mus musculus with 10 samples.

Results

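The genes described here encode the nuclear subunits of the mitochondrial respiratory chain and of the ATP synthase. They were the genes whose symbol begins with Nduf, Uqcr, Atp5 or Cox4 to Cox8, together with Sdha, Sdhb, Sdhc and Sdhd. Each was measured by a probe set annotated to that symbol alone, and where a gene had several, the brightest by its mean on the 10 arrays was used. The rule gave 89 of 19938 measured genes. They comprise 34 subunits of complex I, 7 assembly factors of complex I, 4 subunits of complex II, 8 of complex III, 19 genes of complex IV and 17 of the ATP synthase. Ndufa4 and its relative Ndufa4l2 were counted with complex IV, where the Ndufa4 protein resides.

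Levels were compared between pancreatic islets of 2 inbred mouse strains, the diabetes-prone NZO/Hl and C3HeB/FeJ, called C3H here. Each strain gave 5 arrays, all from male mice aged 6 weeks. Mice of both strains had eaten a diet with 45% of its energy as fat from weaning at day 21, and their islets had been cultured overnight with 10 mM glucose. The study searched for genes with C3H variants in an interval between 30 and 46 Mb, taken here as that of chromosome 7, which the labels do not name. The array titles carry 1 or more animal numbers and the labels do not say how RNA was pooled, so p-values speak only for the spread among these samples.

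The respiratory chain passes electrons from NADH through complex I, or from succinate through complex II, to ubiquinone, and then through complex III, cytochrome c and complex IV to oxygen. Complexes I, III and IV pump protons as they do so, and the ATP synthase uses the return of protons to make ATP. In the beta cell, ATP made from glucose in this way closes potassium channels of the cell membrane, which leads to calcium entry and insulin release. Most subunits are made in all tissues, but several subunits of complex IV have isoforms typical of muscle, lung or testis.

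Values are log2 expression values, so a difference of 1 is a doubling. Medians of all probe sets on the arrays ran from 6.93 to 7.05. Islet hormone genes were bright in both strains but not all alike. Means and SDs (n = 5) for insulin 2 (Ins2) were 12.33 ± 0.07 in C3H and 12.45 ± 0.15 in NZO. For glucagon (Gcg) they were 13.25 ± 0.06 and 13.21 ± 0.12. Somatostatin (Sst), at 13.87 ± 0.04 and 13.12 ± 0.26, was lower in NZO (limma adjusted p = 0.00038). So was pancreatic polypeptide (Ppy), at 13.78 ± 0.12 and 13.37 ± 0.12 (limma adjusted p = 0.0047). Peptide YY (Pyy) differed by -0.39 (SE 0.14, limma adjusted p = 0.109). C3H replicate 4 stood apart over the whole array. Its 25th percentile over genes was 6.45, against 6.17 to 6.29 on the other 9 arrays, its mean over the 4985 brightest genes was 9.85, against 9.96 to 10.08, and its weight in limma was the lowest, at 0.19. Markers of other cells differed. All 23 measured genes of a list of pancreatic acinar genes were higher in NZO in the limma fit, against 5.47% of all genes higher. Their mean lay between 8.09 and 9.01 on the C3H arrays, between 9.94 and 10.56 on NZO replicates 1 to 3, and at 12.03 and 11.89 on NZO replicates 4 and 5. The mean of 15 beta cell genes lay between 11.39 and 11.46 in C3H and between 10.70 and 11.37 in NZO. Of the 15, 6 were lower in NZO, or 40%, against 4.61% of all genes lower. Whole islet RNA was measured, so fewer cells of a type and less of an RNA per cell cannot be told apart.

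Transcript levels of the respiratory chain and the ATP synthase differed little between the strains. Of the 89 genes, 2 were higher and 2 lower in NZO at an adjusted p below 0.05, using limma with Benjamini-Hochberg adjustment over all 19938 genes. The 4 genes make 4.49% of the 89, whereas 10.1% of all genes passed (5.47% higher, 4.61% lower). The difference between these shares was not tested. The lower genes were Cox6a2, a subunit of complex IV, and Ndufa5, a subunit of complex I. The higher genes were Atp5o, a stalk subunit of the ATP synthase, and Ndufaf2, an assembly factor of complex I. When the gene table was quantile-normalized, 2 were higher and 7 lower, and without C3H replicate 4, 2 were higher and 10 lower, with 13.5% of all genes passing in either case. With array weights, 3 were higher and 23 lower, or 29.2% of the 89, against 20.7% of all genes, so the order of the shares depended on the processing.

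Most of the other differences were small and negative. Of all 89 genes, 69 had a lower mean in NZO, or 77.5%, against 55.2% of all genes, and 20 a higher one. The median difference was -0.10, where the median of all genes was -0.02. Among the 85 genes that did not pass, differences ran from -0.32 to 0.31, with a median SE of 0.09. The 95% intervals of 80 of them lay within 0.5 log2 units of 0, and the widest bounds corresponded to 1.46-fold lower and 1.49-fold higher in NZO. These genes share arrays, so the count of negative differences is no count of independent events. Without NZO replicates 4 and 5, the median of the 89 was -0.06, and 60 differences were negative. With the acinar mean as a covariate, the median was 0.05, 35 differences were negative, and none of the 89 passed in limma, where 1.05% of all genes did. With the beta cell mean as a covariate, the median was 0.03, 32 were negative, and again none passed, where 2.62% of all genes did. Both covariates differ between the strains, and that overlap alone widened the SE of each strain difference 2.12-fold and 1.64-fold.

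**Figure D1:**
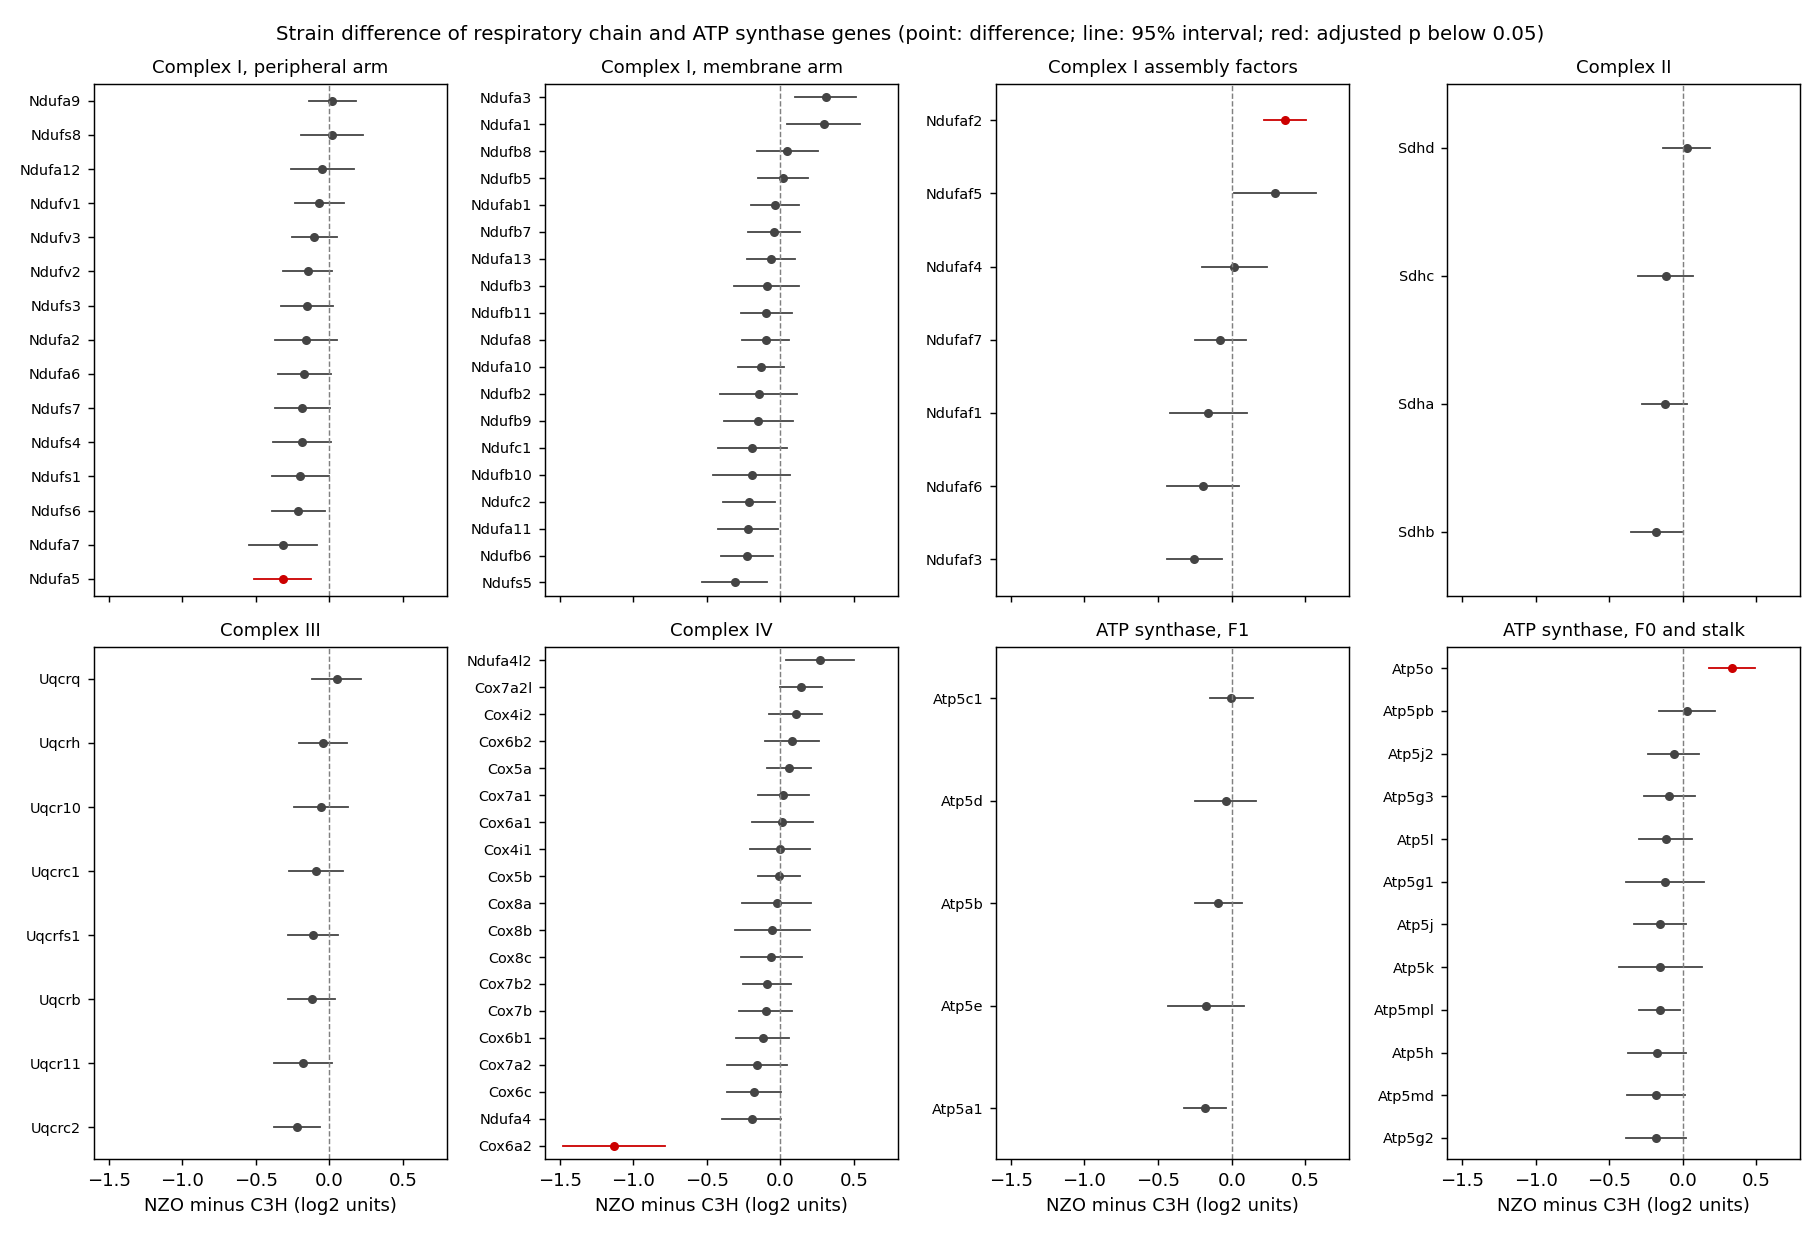
Strain difference of each of the 89 genes by complex, as NZO minus C3H in log2 units, with its 95% interval from limma; colour marks the genes with an adjusted p below 0.05. Of the 4 genes that passed, Cox6a2 lies apart at -1.13, while the genes that did not pass lie between -0.32 and 0.31.

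The complexes took a similar order over the arrays. The mean of the 34 complex I subunits was 9.83, 9.78, 9.82, 9.60 and 9.76 on C3H replicates 1 to 5, and 9.74, 9.74, 9.62, 9.57 and 9.57 on NZO replicates 1 to 5. The strains overlapped, because C3H replicate 4, which was low in bright genes at large, lay below NZO replicates 1, 2 and 3. ATP synthase means were 10.97, 10.88, 10.97, 10.83 and 10.89 in C3H and 10.89, 10.96, 10.79, 10.70 and 10.77 in NZO, again with overlap. NZO replicate 4, the only array whose title carries just 1 animal number, had the lowest mean of the 10 arrays in each of the 5 complexes. NZO replicate 2 was the highest NZO array in each, but in complex I it was level with NZO replicate 1 (9.7373 and 9.7367). NZO replicate 2 also had the lowest acinar mean (9.94) and the highest beta cell mean (11.37) of the NZO arrays, and NZO replicate 4 had the highest acinar mean and the lowest beta cell mean of all 10 arrays. The part of cell composition in these levels was not tested. The covariate fits cannot separate it from strain, because both marker means differ between the strains.

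**Figure D2:**
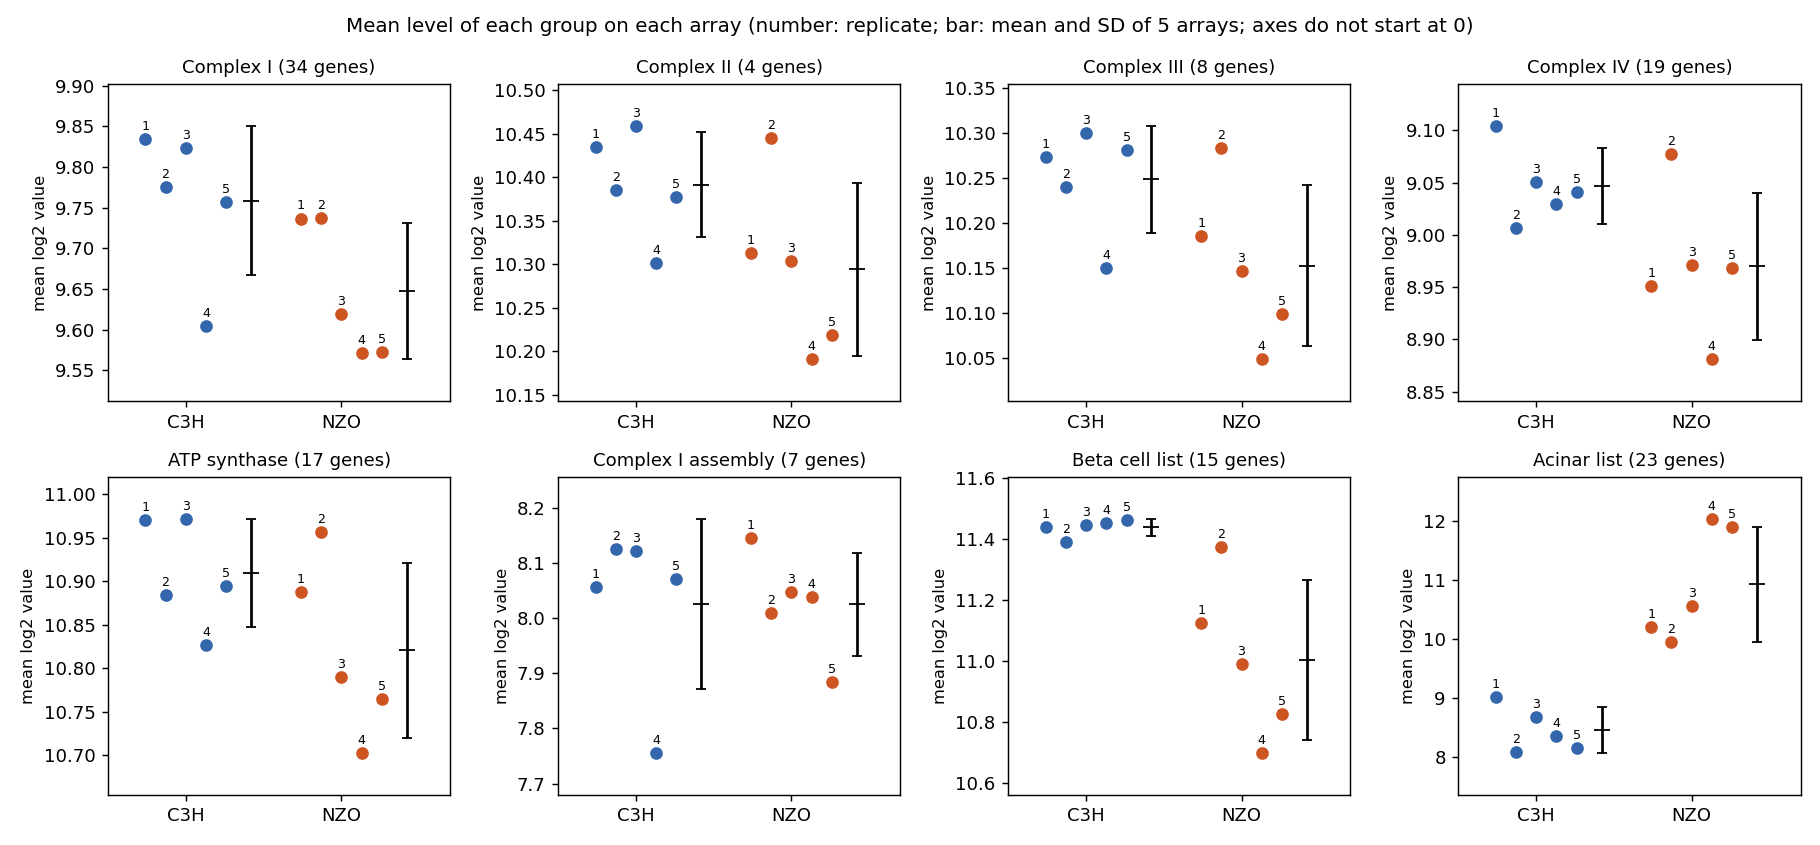
Mean log2 level of each complex, of the complex I assembly factors and of the marker lists on each of the 10 arrays, with the mean and SD of the 5 arrays of a strain. NZO replicate 4 is lowest in each of the 5 complexes and highest in the acinar list, and the strains overlap in every complex.

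Complex I, NADH dehydrogenase, is built from a peripheral arm, which oxidises NADH and carries the iron-sulfur clusters, and a membrane arm, which pumps protons. Of its 34 measured subunits, Ndufa5 was lower in NZO, or 2.94%, against 4.61% of all genes lower. None was higher, and 28 differences were negative, with a median of -0.15. The 15 subunits of the peripheral arm had a median of -0.16, and 13 of their differences were negative. The 19 subunits of the membrane arm had a median of -0.10, and 15 were negative. None of the 19 passed in limma, and 6 had an unadjusted p below 0.05, or 31.6%, against 21.8% of all genes. Among the 6 were Ndufa3 and Ndufa1, which were higher in NZO. None of the 34 was lower when C3H replicate 1, 2, 3 or 5 or NZO replicate 4 or 5 was left out. Without C3H replicate 4, 7 of the 34 were lower, or 20.6%, against 7.89% of all genes. With array weights, 14 were lower, or 41.2%, against 11.6% of all genes.

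Ndufa5, an accessory subunit of the peripheral arm, was at 9.03, 9.21, 9.31, 8.995 and 9.11 on the C3H arrays. On the NZO arrays it was at 8.88, 8.88, 8.91, 8.84 and 8.56. All NZO values lay below all C3H values, and NZO replicate 5 lay furthest from the rest. The difference was -0.32 (SE 0.09, 95% interval -0.51 to -0.13, limma adjusted p = 0.0352), or 1.25-fold lower. This call was close to the threshold and ended when C3H replicate 1, 2, 3 or 5 or NZO replicate 4 or 5 was left out, with a limma adjusted p of at most 0.101. Without NZO replicates 4 and 5 the difference was -0.24, and with the acinar mean as a covariate it was -0.10 (SE 0.18).

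Ndufa7, another accessory subunit of the peripheral arm, differed by almost as much but did not pass. Its values were 8.76, 8.65, 8.64, 8.38 and 8.55 in C3H and 8.45, 8.54, 8.22, 7.99 and 8.19 in NZO, so that C3H replicate 4 lay within the NZO range. The difference was -0.32 (SE 0.11, limma adjusted p = 0.0812). The subunits that carry electrons differed less. Ndufv1, which binds NADH, differed by -0.07 (SE 0.08), and Ndufs1, which holds several iron-sulfur clusters, by -0.20 (SE 0.09). Ndufs7 and Ndufs8, which hold the clusters nearest to ubiquinone, differed by -0.18 (SE 0.09) and 0.02 (SE 0.10).

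In the membrane arm, the small subunits Ndufa3 and Ndufa1 stood on the positive side. Ndufa3 was at 10.12, 9.87, 9.99, 9.89 and 9.94 in C3H and at 10.18, 10.45, 10.18, 10.03 and 10.51 in NZO, with only NZO replicate 4 inside the C3H range. Its difference was 0.31 (SE 0.10, limma adjusted p = 0.0635), and that of Ndufa1 was 0.29 (SE 0.12, limma adjusted p = 0.142). Ndufs5 had the lowest difference of the arm, -0.31 (SE 0.10, limma adjusted p = 0.075). The other 16 lay between -0.23 and 0.05.

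The assembly factors of complex I are proteins that help to build the complex and are not part of it when finished. Ndufaf2, which acts late in assembly, had the largest positive difference of the 89 genes. It was at 7.58, 7.58, 7.66, 7.56 and 7.63 on the C3H arrays and at 7.98, 7.91, 7.96, 8.07 and 7.91 on the NZO arrays. The strains did not overlap, and the arrays of each lay close together. The difference was 0.36 (SE 0.07, 95% interval 0.22 to 0.51, limma adjusted p = 0.0025), or 1.29-fold higher in NZO. It passed in all 10 fits that left out 1 array, and was 0.30 (SE 0.15, limma adjusted p = 0.767) with the acinar mean as a covariate. The other 6 factors did not pass and ran from -0.25 for Ndufaf3 to 0.29 for Ndufaf5. Of a wider list of 16 measured complex I assembly factors, which holds these 7, 2 were higher, or 12.5%, against 5.47% of all genes higher. None of the 16 was lower, and their median was -0.10. The second higher factor was Dmac1, at 0.27 (SE 0.07, limma adjusted p = 0.0258).

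Complex II, succinate dehydrogenase, links the citric acid cycle to the chain, and all of its subunits are nuclear genes. None of the 4 passed in limma, and 1 had an unadjusted p below 0.05, where 21.8% of all genes had one. The flavoprotein Sdha averaged 10.93 ± 0.06 in C3H and 10.80 ± 0.09 in NZO and differed by -0.12 (SE 0.07). The iron-sulfur subunit Sdhb differed by -0.18 (SE 0.08, limma adjusted p = 0.214), and the membrane anchors Sdhc and Sdhd by -0.11 (SE 0.09) and 0.03 (SE 0.07). Their 95% intervals together spanned -0.35 to 0.19, so that a fold above 1.28 lay outside each of them.

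Complex III, the cytochrome bc1 complex, hands electrons from ubiquinol to cytochrome c. None of its 8 subunits among the 89 genes passed in limma, and 7 differences were negative, with a median of -0.10. An unadjusted p below 0.05 was found for 1 of them, or 12.5%, against 21.8% of all genes. That gene, the core subunit Uqcrc2, was at 11.26, 11.31, 11.30, 11.21 and 11.24 in C3H and at 11.21, 11.06, 11.08, 10.97 and 10.93 in NZO. The strains did not overlap, although C3H replicate 4 and NZO replicate 1 nearly met. The difference was -0.22 (SE 0.07, limma adjusted p = 0.0735). The other core subunit, Uqcrc1, differed by -0.09 (SE 0.08), and the Rieske iron-sulfur protein Uqcrfs1 by -0.11 (SE 0.08).

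Complex IV, cytochrome c oxidase, reduces oxygen to water, and around its mitochondrially encoded core sit small nuclear subunits, many with isoforms. Of its 19 measured genes, 1 was lower, or 5.26%, against 4.61% of all genes lower, and none was higher. Cox6a2, the heart and skeletal muscle isoform of subunit VIa, was at 9.70, 9.15, 9.73, 9.65 and 9.60 on C3H replicates 1 to 5 and at 8.26, 9.08, 8.45, 8.13 and 8.24 on NZO replicates 1 to 5. Every NZO array lay below every C3H array, but C3H replicate 2, the lowest of its strain, was close to NZO replicate 2, the highest of its own. The difference was -1.13 (SE 0.16, 95% interval -1.48 to -0.79, limma adjusted p = 0.00039), or 2.19-fold lower in NZO. It passed in all 10 fits that left out 1 array, with differences between -1.30 and -1.06, and was -0.97 without NZO replicates 4 and 5.

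Cox6a1, the isoform of the same subunit that most tissues use, was at 11.53, 11.33, 11.54, 11.27 and 11.46 in C3H and at 11.49, 11.67, 11.30, 11.20 and 11.55 in NZO. The strains overlapped over most of their range. The difference was 0.01 (SE 0.10, 95% interval -0.20 to 0.22, limma adjusted p = 0.97). This interval does not meet that of Cox6a2, and the difference between the isoforms was not tested itself.

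Markers of islet cells followed Cox6a2 on some arrays and not on others. NZO replicate 2, where Cox6a2 was highest among the NZO arrays, also had the highest mean of the beta cell list (11.37) in that strain. Its mean of 6 delta and PP cell genes (10.87) was the highest in NZO too. Of those 6 genes, 4 were lower in NZO, or 66.7%, against 4.61% of all genes lower. On C3H replicate 2, where Cox6a2 was lowest in C3H, the beta cell mean was the lowest of that strain (11.39), but the delta and PP mean was the highest (11.32). NZO replicate 1 had a higher beta cell mean than NZO replicate 3 (11.13 and 10.99) but a lower Cox6a2 value (8.26 and 8.45). With the beta cell mean as a covariate, Cox6a2 differed by -0.56 (SE 0.19, limma adjusted p = 0.173), and with the acinar mean by -0.69 (SE 0.32, limma adjusted p = 0.695). Among striated muscle genes, none of 11 passed in limma or had an unadjusted p below 0.05. Their mean was 6.85 ± 0.19 in C3H and 6.88 ± 0.10 in NZO.

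**Figure D3:**
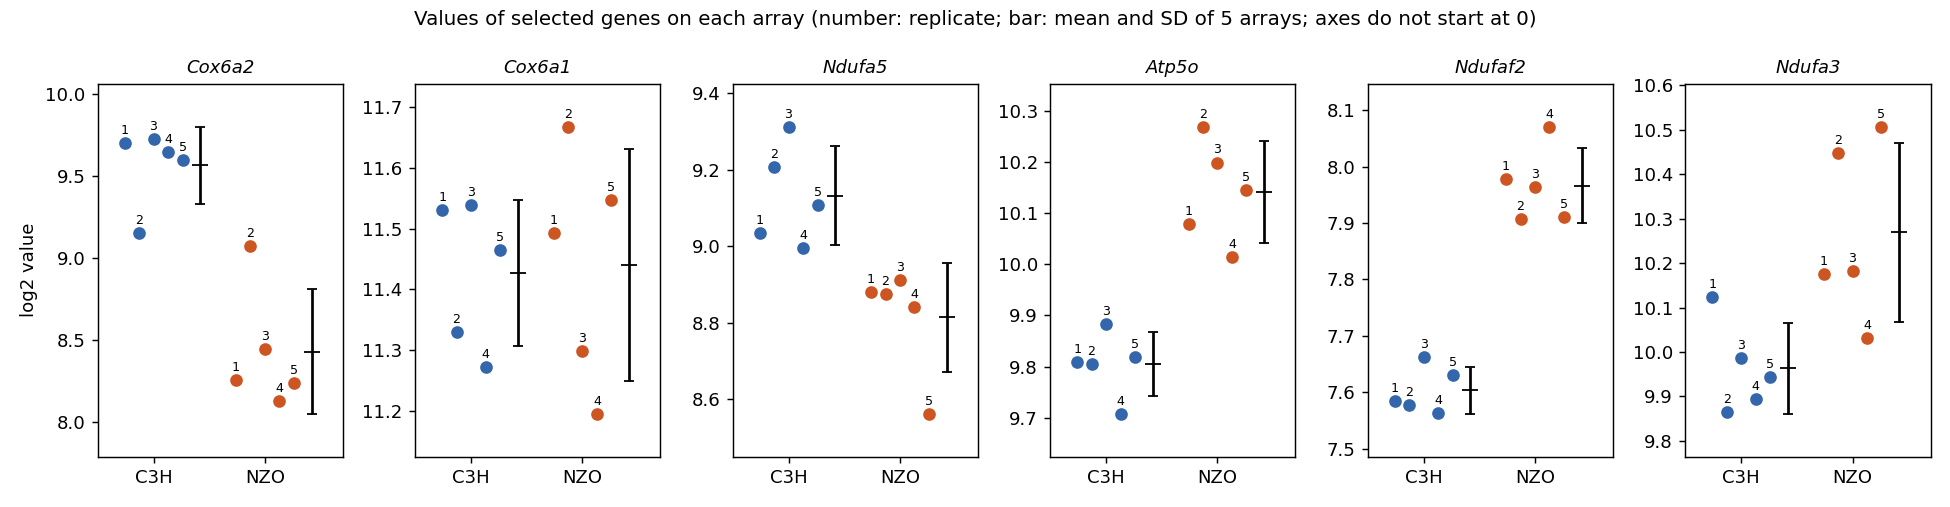
Log2 values of single genes on each array, with the mean and SD of the 5 arrays of a strain. The strains separate for Cox6a2, Ndufa5, Atp5o and Ndufaf2, and overlap for Cox6a1.

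None of the other 7 tissue isoforms of complex IV passed in limma, and 1 of them, Ndufa4l2, had an unadjusted p below 0.05. Such a p was found for 21.8% of all genes. Ndufa4l2, which is known for its induction by low oxygen, averaged 7.44 ± 0.17 in C3H and 7.71 ± 0.20 in NZO and differed by 0.27 (SE 0.11, limma adjusted p = 0.146). The lung isoform Cox4i2 differed by 0.10 (SE 0.08), and the muscle isoforms Cox7a1 and Cox8b by 0.02 (SE 0.08) and -0.05 (SE 0.12). The testis forms Cox6b2, Cox7b2 and Cox8c differed by 0.08 (SE 0.09), -0.09 (SE 0.08) and -0.06 (SE 0.10). Cox7b2 lay below the 25th percentile of the genes on all 10 arrays and Cox8b on 5, and the values carry no detection call, so these levels were not shown to be above background.

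On their brightest probe sets, the 11 widely expressed genes of complex IV ran from -0.20 to 0.14. None of them passed or had an unadjusted p below 0.05 in limma on those probe sets. Cox4i1 differed by -0.003 (SE 0.10), Cox7a2 by -0.16 (SE 0.10), Cox7b by -0.10 (SE 0.08), Cox8a by -0.03 (SE 0.11) and Ndufa4 by -0.20 (SE 0.09). Cox7a2l, which helps to join complexes III and IV into supercomplexes, differed by 0.14 (SE 0.07, limma adjusted p = 0.233). The 95% intervals of all 11 together spanned -0.40 to 0.28. On a dimmer probe set, Cox6c differed by -0.24 (SE 0.07) and Cox7a2l by 0.21 (SE 0.07), outside the range of the brightest probe sets. Dimmer probe sets of Cox5b and Cox7b lay within that range, at -0.02 (SE 0.07) and -0.13 (SE 0.08).

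Of the 89 genes, Cox6b1 and Cox7a1 start in the interval of chromosome 7, by the gene positions of GRCm38.p6. Cox6b1, a subunit at the contact of the monomers of complex IV, was at 11.62, 11.53, 11.52, 11.31 and 11.44 in C3H and at 11.34, 11.54, 11.29, 11.22 and 11.42 in NZO. These values overlapped, and the difference of -0.12 (SE 0.08, limma adjusted p = 0.474) did not pass. Cox7a1, given above, had a 95% interval of -0.16 to 0.19.

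The ATP synthase consists of a catalytic F1 head and a membrane-bound F0 part, joined by a central and a peripheral stalk. Of its 17 measured genes, Atp5o was higher in NZO, or 5.88%, against 5.47% of all genes higher, and none was lower. Of the 17 differences, 15 were negative, or 88.2%, against 55.2% over all genes, with a median of -0.12. Atp5o encodes the oligomycin sensitivity-conferring protein, which ties the peripheral stalk to the head. It was at 9.81, 9.81, 9.88, 9.71 and 9.82 in C3H and at 10.08, 10.27, 10.20, 10.01 and 10.14 in NZO. Every NZO array lay above every C3H array, and NZO replicate 2 was the highest. The difference was 0.34 (SE 0.07, 95% interval 0.18 to 0.49, limma adjusted p = 0.0081), or 1.26-fold higher. It passed in all 10 fits that left out 1 array, and was 0.46 (SE 0.16, limma adjusted p = 0.355) with the acinar mean as a covariate and 0.46 (SE 0.12, limma adjusted p = 0.0543) with the beta cell mean.

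All 5 genes of the F1 head had negative differences. None passed in limma, and 1 had an unadjusted p below 0.05, or 20%, against 21.8% of all genes. The catalytic subunit Atp5b, the brightest of the 89 genes, averaged 12.67 ± 0.06 in C3H and 12.58 ± 0.10 in NZO and differed by -0.09 (SE 0.07). Its partner Atp5a1 was at 11.97, 11.94, 12.00, 11.99 and 12.02 in C3H and at 11.89, 11.82, 11.85, 11.74 and 11.72 in NZO, without overlap, and differed by -0.18 (SE 0.07, limma adjusted p = 0.112). The rotor subunit Atp5c1 differed by -0.002 (SE 0.07). The proton-carrying ring of F0 is made of one protein that 3 genes encode, and these, Atp5g1, Atp5g2 and Atp5g3, differed by -0.12 (SE 0.12), -0.18 (SE 0.09) and -0.09 (SE 0.08). Atp5mpl, a small membrane subunit, did not overlap between the strains either, at -0.16 (SE 0.07, limma adjusted p = 0.166).

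In all, the strains did not overlap in 7 of the 89 genes, or 7.87%, where 9.14% of all genes did not. NZO was lower without overlap in 5 of the 89, where 4.18% of all genes (834 of 19938) lay lower without overlap. Among only the genes without overlap, NZO was lower in 5 of the 7, and in 834 of 1822 over all genes. The 7 were the 4 that passed, Uqcrc2, Atp5a1 and Atp5mpl. NZO arrays had the larger SD in 62 of the 89 genes, or 69.7%. The share was 44.6% over all genes and 71.0% among the 1994 brightest genes.

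**Figure D4:**
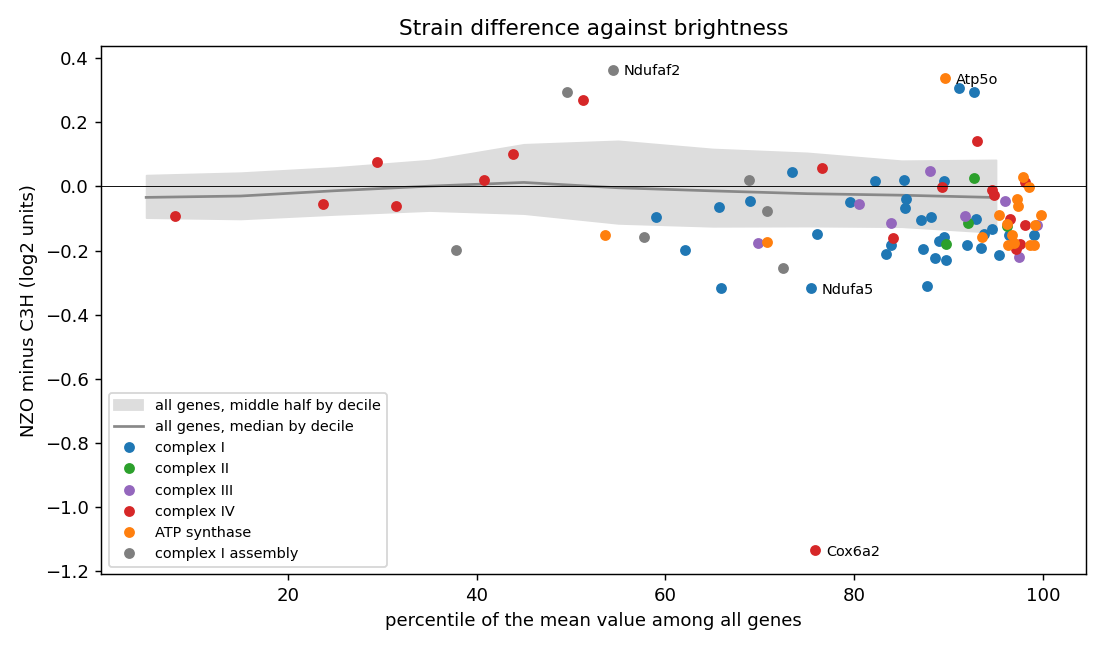
NZO minus C3H in log2 units against the brightness of a gene, for the 89 genes by complex, with the median and the 25th to 75th percentile of all genes in each decile of brightness. Most points lie at the bright end and slightly below the median of all genes, which is -0.03 in the brightest decile, and Cox6a2 lies far below.

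The promoters of many respiratory genes are known to hold sites for the transcription factor NRF1, and some for GABP, ERRA and YY1. Promoter windows from RefSeq (GRCm38.p6) were matched for 73 of the 89 genes, and the 250 bases before each gene start were searched on both strands for exact letters. The NRF1 letters, GCGCA, any base and then GCGC, were present for 12 of 63 widely expressed subunits, or 19%, against 4.23% of 27025 genes. None of the 4 tissue isoforms with a window (Cox6b2, Cox7a1, Cox7b2 and Cox8b) had them. The GABP letters CCGGAAGT were present for 3 of the 63 (4.76%, against 3.23% of all genes), the ERRA letters TCAAGGTCA for 1 (1.59%, against 0.422%), and the YY1 letters, AAGATGG followed directly by CGGC, for none (against 0.248%). A match describes the letters and is not a shown site.

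The last 150 bases before the start are shown for 3 of the genes that passed and for Cox6a1, the partner isoform of Cox6a2, with NRF1 letters in capitals, to set genes that differed beside one that did not pass. Those letters began 26 bases before the upstream one of the starts listed for Ndufa5. For Cox6a1 they began 117 bases before the start, and a second match 162 bases before it lies outside the stretch shown. The stretches of Atp5o and Ndufaf2 hold no match to the NRF1 letters. All 4 genes lie on the minus strand, and the sequences read 5′ to 3′ along the gene.
Ndufa5, chr6:24527691-24527840, minus strand: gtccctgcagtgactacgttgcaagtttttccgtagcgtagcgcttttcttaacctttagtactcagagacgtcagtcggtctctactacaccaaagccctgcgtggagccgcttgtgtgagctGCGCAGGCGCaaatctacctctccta
Cox6a1, chr5:115348959-115349108, minus strand: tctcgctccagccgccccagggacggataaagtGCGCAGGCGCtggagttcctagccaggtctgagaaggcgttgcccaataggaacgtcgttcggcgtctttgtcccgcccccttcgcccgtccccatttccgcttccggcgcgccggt
Atp5o, chr16:91931631-91931780, minus strand: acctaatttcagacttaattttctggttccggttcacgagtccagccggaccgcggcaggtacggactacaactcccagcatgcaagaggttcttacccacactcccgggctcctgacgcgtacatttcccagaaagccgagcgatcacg
Ndufaf2, chr13:108158626-108158775, minus strand: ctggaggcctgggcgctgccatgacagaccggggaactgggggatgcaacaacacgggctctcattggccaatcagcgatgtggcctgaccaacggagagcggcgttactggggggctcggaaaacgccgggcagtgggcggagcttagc

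Of 19 regulators of mitochondrial genes, 2 passed, or 10.5%, where 10.1% of all genes did. The orphan nuclear receptor Esrrg was higher at 0.45 (SE 0.11, limma adjusted p = 0.0145), and Tfb1m, a methyltransferase of mitochondrial ribosomal RNA, was lower at -0.46 (SE 0.11, limma adjusted p = 0.0134). Nrf1, which encodes the factor whose letters were searched, differed by -0.08 (SE 0.09), and the coactivator Ppargc1a by -0.04 (SE 0.21). Of 16 genes of mitochondrial content, such as porins, import receptors and chaperones, 1 was higher, or 6.25%, against 5.47% of all genes higher. None of the 16 was lower, and their median was -0.07. The higher gene was the fusion gene Mfn2, at 0.35 (SE 0.10, limma adjusted p = 0.048).

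Genes that serve the other complexes or carry electrons between them gave different shares. Of 6 complex III assembly factors, 2 passed, or 33.3%, where 10.1% of all genes did. Lyrm7, a chaperone of the Rieske protein, was higher and Ttc19 lower, the latter at -0.31 (SE 0.08, limma adjusted p = 0.0194). Lyrm7 was at 5.67, 5.55, 5.49, 5.76 and 5.52 in C3H and at 6.42, 6.52, 6.74, 6.46 and 6.25 in NZO, with no overlap. Its difference was 0.88 (SE 0.09, limma adjusted p = 2.84e-05), but it lay below the 25th percentile of the genes on 6 arrays, where a level over background was not shown. Of 19 genes of electron carriers, electron entry and ubiquinone synthesis, Coq7, a hydroxylase of ubiquinone synthesis, was lower and none was higher, which makes 5.26% of that list. Coq7 was at 8.43, 8.66, 8.39, 8.25 and 8.30 in C3H and at 8.16, 7.97, 7.91, 7.83 and 7.79 in NZO, without overlap, and differed by -0.48 (SE 0.10, limma adjusted p = 0.0046). Cytochrome c (Cycs) differed by -0.14 (SE 0.07). Cytochrome c1 (Cyc1), a subunit of complex III whose symbol lies outside the rule for the 89 genes, differed by -0.06 (SE 0.09). None of 20 complex IV, 4 complex II and 4 ATP synthase assembly factors passed in limma, with medians of -0.10, -0.05 and 0.01. Of these, 3, 0 and 0 had an unadjusted p below 0.05, where 21.8% of all genes had one.

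Of 7 measured genes of ATP export and proton leak, 1 was higher, or 14.3%, against 5.47% of all genes higher, and none was lower. That gene, the testis ADP/ATP carrier Slc25a31, differed by 0.50 (SE 0.10, limma adjusted p = 0.00597). It started from a level of 4.80 ± 0.15 in C3H, where a level over background was not shown. The main carriers Slc25a4 and Slc25a5 differed by -0.28 (SE 0.08, limma adjusted p = 0.0518) and -0.15 (SE 0.07, limma adjusted p = 0.223), and the ATP synthase inhibitor Atpif1 by -0.22 (SE 0.09, limma adjusted p = 0.166). The mitochondrially encoded subunits were not analysed here.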

How the data were processed

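Islet RNA (150 ng per array, RNA integrity number above 8) was amplified, labelled and measured on a whole-transcript array, per the labels' protocols. Per the submitters' processing notes, the authors used RMA in Affymetrix Expression Console, and the deposited log2 values are 1 per probe set and array. RMA corrects for background, makes the arrays' distributions alike and pools probes, without a detection call. For software version and genome build: not given in the sources used here.

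Of 35556 probe sets, 21789 carried 1 gene symbol and gave 19938 genes. Of the 89 genes, 17 had several probe sets, and all 89 matched RefSeq. Each of the 4 genes that passed had only 1 probe set with its symbol alone, so the alternatives on probe sets could not change their differences. Whether sequence variants between the strains lie under their probes was not tested. Strains were compared with limma 3.58.1 (lmFit, eBayes; R 4.3.3) over all 10 arrays, two-sided, without covariates, as NZO minus C3H, and each SE comes from that fit. On simulated data for this comparison over 19938 genes, 68% of genes changed by 0.5 log2 units and 96% of those changed by 1 were recovered, with 10 false calls. Full statistics go to the genes that passed, the 3 largest differences in each direction, isoforms, complex II, genes in the interval and up to 2 passing genes of each related list; other genes were named for their role or after their values were seen. The genes and lists were chosen with earlier results of these data known, and no list was tested. The number of arrays limits the precision.

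Alternatives left out arrays or changed the filter on dim genes, the normalization, the variance model, array weights, the probe set or the covariates.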

Additional observations from a re-analysis of the deposited data

Results flagged for a closer look

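Values of 28 of the 89 genes (those that passed, the largest differences, isoforms, complex II and the genes in the interval) and the means of all members, of the 5 complexes and of the complex I assembly factors were examined in each strain, in 70 groups of 5 arrays. Other genes given above, such as Uqcrc2 and Atp5a1, were not examined in this way. Of the values examined, 6 stood apart from the other arrays of their strain by Dixon's gap. Chance gives such a value in about 1 of 20 groups. Cox6a2 was 9.15 on C3H replicate 2, against 9.60 to 9.73 on the rest of that strain. Ndufa5 was 8.56 on NZO replicate 5, against 8.84 to 8.91 on the others. Cox4i2 was 7.09 on NZO replicate 1, against 7.23 to 7.28, and Cox7a1 was 7.20 on C3H replicate 1, against 6.91 to 6.99. On C3H replicate 4, Cox7b was 10.80, against 10.98 to 11.03, and the mean of the complex I assembly factors was 7.76, against 8.06 to 8.13. Without C3H replicate 2, Cox6a2 differed by -1.24, and without NZO replicate 5, Ndufa5 differed by -0.26.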

How the results depend on the processing

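The count of lower genes among the 89 depended on the processing, where the main count was 2, or 2.25%, against 4.61% of all genes lower. Leaving out 1 array gave 1 to 10 (10 without C3H replicate 4, or 11.2%, against 7.89% of all genes lower). Leaving out NZO replicates 4 and 5 gave 1, or 1.12%, against 2.47% of all genes lower. Leaving out C3H replicate 4 as well also gave 1, against 4.73% of all genes lower. Quantile normalization gave 7, or 7.87%, against 6.95% of all genes lower. Limma with trend and robust estimation gave 4, or 4.49%, against 4.95%, and array weights 23, or 25.8%, against 11.6%. The count of lower complex I genes, 1 in the main result, was 0 to 7 with 1 array left out. It was 0 without NZO replicates 4 and 5, and 0 without C3H replicate 4 as well. It was 5 with quantile normalization, or 14.7%, against 6.95% of all genes lower. With array weights it was 14, or 41.2%, against 11.6%. Array weights gave 2 lower genes in complex IV, or 10.5%, against 11.6% of all genes lower. With the acinar or the beta cell mean as a covariate, every count fell to 0, for all members, complex I and complex IV lower and for all members, the ATP synthase and the complex I assembly factors higher, while the share of all genes that passed fell from 10.1% to 1.05% and 2.62%. The cause was not tested. In no alternative did one of the 4 genes that passed change sign. The median of the 89 lay between -0.13 and -0.09 with 1 array left out. No paired analysis was possible because the labels give no replicate numbers that the strains share. Dim isoforms have no detection call, which limits what their levels show.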

Other observations

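Some subunits were measured only by probe sets annotated to a pair of symbols, and these were not among the 89 genes. The complex IV subunit Cox7c shares 3 probe sets with Gm12338, which differed by -0.03 (SE 0.09), -0.04 (SE 0.08) and -0.04 (SE 0.08). The complex I membrane arm subunit Ndufb4 shares 2 probe sets with its copy Ndufb4b. One was at 10.49 ± 0.08 in C3H and 10.17 ± 0.24 in NZO (n = 5 each) and differed by -0.31 (SE 0.11), and the other differed by -0.30 (SE 0.10). Transcripts of the copies cannot be separated on these probe sets, and no adjusted p was computed for them.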
